A study of Mus musculus with 2 samples.

Results

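Mitosis and chromosome segregation genes encode the machinery that condenses, aligns and separates chromosomes and then divides the cell. The group described here has 44 such genes, chosen by name from a list with earlier results of these data known. A gene was followed where a transcript cluster of the array carried its symbol and no other. This held for 42 of the 44 genes, out of 30145 named genes on the array, and each of the 42 had exactly 1 such cluster. Foxm1, a transcription factor that drives late cell-cycle genes, shared its cluster with another symbol (4933413G19Rik), and Ccnb1, which encodes cyclin B1, was not analysed here. RNA came from cultured adipose-derived stromal cells, the fibroblast-like cells that grow out of fat, from inguinal fat. The mice were C57BL/6J, 6 to 10 weeks old, and the cells were kept in DMEM with 15% fetal bovine serum. The wild-type group was 1 sample on 1 array, and the Wisp1 knockout group was 1 sample on 1 array. Per the labels' protocols, exons 1 to 5 of Wisp1 on chromosome 15 were floxed and the mice were mated with a mouse labelled Cre-neo to give a global knockout. The promoter of the Cre, the number of animals behind a sample and the number of cell passages are not given in the sources used here.

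With 1 array a group there was no replicate spread, no test and no p-value, and every difference below compares 2 arrays rather than genotypes. Each difference is the log2 value of the knockout array minus that of the wild-type array. Array signals of different genes depend on their probes, so signals are compared only within a gene. The 65956 transcript clusters had a median log2 signal of 3.93 (wild type) and 3.92 (knockout). Wisp1, which encodes a secreted matricellular protein, went from a log2 signal of 7.79 to 5.40 (difference -2.39). The stromal label was checked against 12 measured stromal markers, of which 11 were at or above the median signal of named genes, 4.65. Among them, the collagen gene Col1a1 had log2 signals of 11.40 and 11.90 and the receptor gene Pdgfrb 10.38 and 10.49, while Nt5e was dim at 3.27 and 3.28.

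Cells enter mitosis when cyclin-dependent kinase CDK1, bound to cyclins A and B, becomes active. Kinetochores then attach chromosomes to the spindle, the spindle checkpoint holds the cell until all are attached, and the anaphase-promoting complex triggers chromosome separation and cyclin destruction. Most of these genes are transcribed late in the cell cycle, under control of the MuvB complex, which binds a promoter element called the cell cycle genes homology region (CHR), together with the CCAAT-binding factor NF-Y. In quiescent cells the same element serves repression. In fibroblast cultures their RNA is therefore widely used as a sign of dividing cells.

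Promoters are shown first, since the shared CHR and CCAAT letters are what most of these genes have in common beyond their function. The sequences are from RefSeq (GRCm38.p6), each 300 bases long, from 250 bases before to 50 bases after an annotated start site, and read 5′ to 3′ on the strand of the gene. Capitals mark the CHR letters TTTGAA and TTCGAA and the CCAAT box, each searched on both strands, so that TTCAAA and ATTGG are the same motifs read from the other strand. The first 5 belong to the measured genes with the largest differences among those whose promoter entry held both motifs. Cdk1 and Spc25 hold both motifs too, and were added, after their values were seen, as genes with a difference close to 0 and below 0. The windows are chr9:70421505-70421804 (minus strand) for Ccnb2, chr7:135716330-135716629 (minus strand) for Mki67, chr9:83834439-83834738 (plus strand) for Ttk, chr2:164769679-164769978 (plus strand) for Ube2c, chr7:122159185-122159484 (plus strand) for Plk1, chr10:69352863-69353162 (minus strand) for Cdk1 and chr2:69206164-69206463 (minus strand) for Spc25.
Ccnb2: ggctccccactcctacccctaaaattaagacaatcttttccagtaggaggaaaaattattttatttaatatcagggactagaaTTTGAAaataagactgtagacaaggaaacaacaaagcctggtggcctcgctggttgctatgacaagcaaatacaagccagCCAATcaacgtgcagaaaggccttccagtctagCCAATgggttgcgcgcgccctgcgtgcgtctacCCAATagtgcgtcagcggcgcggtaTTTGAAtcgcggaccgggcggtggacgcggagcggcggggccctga
Mki67: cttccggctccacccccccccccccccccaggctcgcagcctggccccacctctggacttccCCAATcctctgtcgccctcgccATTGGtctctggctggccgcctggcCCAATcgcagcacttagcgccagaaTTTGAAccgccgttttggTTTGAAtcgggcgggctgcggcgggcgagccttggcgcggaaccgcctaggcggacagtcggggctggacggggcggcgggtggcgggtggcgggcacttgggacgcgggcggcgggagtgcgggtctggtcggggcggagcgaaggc
Ttk: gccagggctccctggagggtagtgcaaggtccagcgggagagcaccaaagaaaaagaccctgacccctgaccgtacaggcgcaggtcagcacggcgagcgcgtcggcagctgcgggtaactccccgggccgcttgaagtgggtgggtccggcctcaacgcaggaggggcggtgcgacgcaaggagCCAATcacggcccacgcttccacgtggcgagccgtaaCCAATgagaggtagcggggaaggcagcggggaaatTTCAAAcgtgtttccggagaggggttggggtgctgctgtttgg
Ube2c: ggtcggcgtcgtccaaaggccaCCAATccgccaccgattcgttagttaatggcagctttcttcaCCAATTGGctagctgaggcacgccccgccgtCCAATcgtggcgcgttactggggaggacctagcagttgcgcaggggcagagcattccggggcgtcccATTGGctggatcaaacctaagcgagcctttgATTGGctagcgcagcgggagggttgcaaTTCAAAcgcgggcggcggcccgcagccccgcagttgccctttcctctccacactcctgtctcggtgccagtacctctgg
Plk1: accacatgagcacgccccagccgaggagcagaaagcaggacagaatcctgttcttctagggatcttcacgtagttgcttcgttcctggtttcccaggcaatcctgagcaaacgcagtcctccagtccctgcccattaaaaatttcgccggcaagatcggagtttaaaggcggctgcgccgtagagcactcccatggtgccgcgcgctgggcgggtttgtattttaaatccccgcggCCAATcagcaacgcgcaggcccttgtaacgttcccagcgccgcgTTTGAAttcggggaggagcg
Cdk1: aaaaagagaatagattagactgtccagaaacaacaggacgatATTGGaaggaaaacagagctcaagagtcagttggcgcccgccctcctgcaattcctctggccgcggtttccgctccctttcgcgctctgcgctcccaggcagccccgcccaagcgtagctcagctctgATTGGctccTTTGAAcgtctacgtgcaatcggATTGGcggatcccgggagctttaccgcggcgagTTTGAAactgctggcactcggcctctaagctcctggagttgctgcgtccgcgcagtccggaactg
Spc25: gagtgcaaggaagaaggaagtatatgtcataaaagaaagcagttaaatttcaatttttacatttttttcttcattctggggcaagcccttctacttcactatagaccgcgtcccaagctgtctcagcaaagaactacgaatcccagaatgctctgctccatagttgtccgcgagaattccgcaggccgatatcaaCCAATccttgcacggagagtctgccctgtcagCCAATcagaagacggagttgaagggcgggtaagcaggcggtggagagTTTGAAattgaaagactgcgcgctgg

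The Ccnb2 promoter held 3 CCAAT boxes, starting at positions -87, -54 and -21, followed by a CHR at base 5 after the start site. A further CHR match lay at -167. Ttk had the same order with fewer boxes, at -65 and -28, and a CHR at base 8, and so did Spc25, with boxes at -55 and -23 and a CHR at base 25. In Mki67 the motifs lay farther upstream, with 3 boxes between -188 and -141 and CHR letters at -116 and -98. Ube2c held 6 CCAAT boxes, 2 of them overlapping on opposite strands, with a CHR at -29. Cdk1 held 3 boxes and CHR letters at -71 and -15. The order of boxes and CHR was thus alike in Ccnb2, the gene with the largest difference, and in Spc25, the gene with the lowest.

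A promoter entry was found for 37 of the 44 genes, 39 entries in all, since Ect2 and Prc1 have 2 overlapping entries each. CHR letters were present in 31 of the 39 entries (79.5%), against 19.2% of all 32851 promoter windows of the same length. A CCAAT box was present in 28 (71.8%, against 37.4%), and both motifs in 26 (66.7%, against 7.52%). Within the last 100 bases of the window, around the start site, 28 entries (71.8%) held CHR letters, against 5.31% of all windows. The TTTGAA form was in 30 entries and the TTCGAA form in 3. Among promoters of genes for DNA replication and the G1-S transition, 9 of 49 (18.4%) held CHR letters. A match describes letters and does not show a bound site. The CHR letters did not sort the genes by their difference: the median difference was 0.10 over the 29 measured genes with CHR letters and 0.13 over the 7 without. In the latter group were Nuf2, Birc5 and Cenpe, with differences of 0.35, 0.20 and 0.20, and Kif18a, at 0.

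**Figure D1:**
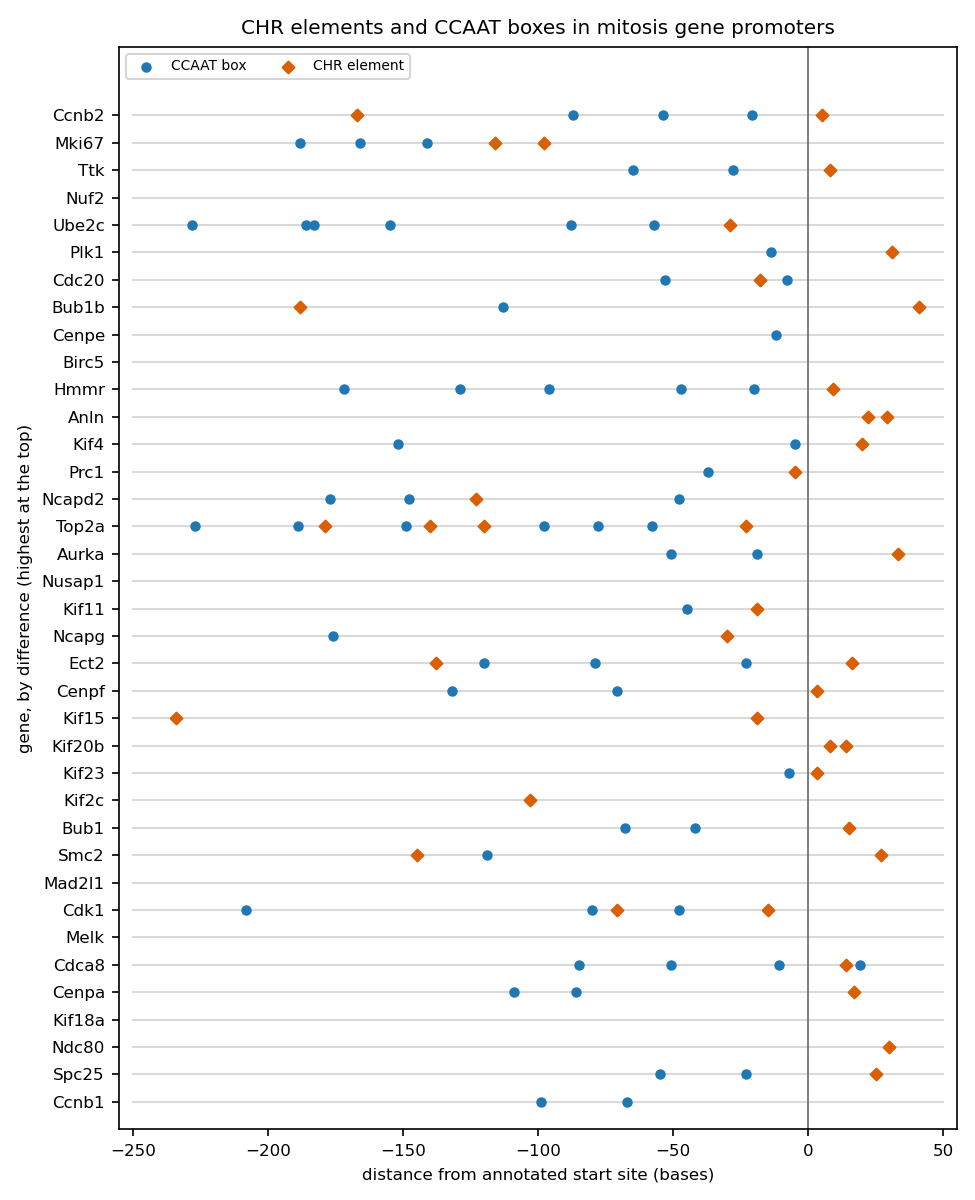
Positions of CHR elements (diamonds) and CCAAT boxes (circles) in the promoters of 37 mitosis genes, 1 entry a gene, by distance in bases from the annotated start site; genes are ordered by their difference between the arrays, and Ccnb1, at the bottom, has no measured difference. CHR letters gather near the start site from the top to the bottom of the order, in Ccnb2 (0.52) as in Spc25 (-0.11).

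Mitosis genes had slightly higher values on the knockout array than on the wild-type array. Of the 42 measured genes 37 were higher, 2 were lower and 3 had the same value on the arrays. Among all 30145 named genes 47.0% were higher, 47.4% lower and 5.66% equal, and among the 15073 with a mean signal at or above the median 56.9% were higher. The median difference of the 42 genes was 0.12, a ratio of 1.08, against 0 over all named genes and 0.03 over those at or above the median signal. The differences ran from -0.11 for Spc25 to 0.52 for Ccnb2. At a 1.1-fold difference 17 of 42 genes were higher, where 16.3% of all named genes were, and none was lower, where 16.6% were. At a difference of 0.32 or more, a ratio 25% above 1, 4 of 42 were higher (2.72% of all named genes) and none was lower by that ratio (3.06%). These were Ccnb2, Mki67, Ttk and Nuf2, and the next gene, Ccna2, lay just outside at 0.28, or 1.21-fold. The last 2 of them were dim: 11 of the 42 genes had a mean signal below 4.65, and of the 31 at or above it 2 were higher by 0.32 or more, where 3.89% of named genes at that signal were, and none was lower by as much (2.64%). At 1.1-fold 13 of the 31 were higher (21.3%) and none lower (12.5%). Kif4 was among the 31 only through its knockout signal. At 1.5-fold no mitosis gene differed, where 0.717% of named genes at that signal were higher and 0.464% lower, and at 2-fold 0.0663% and 0.0995%. In bulk RNA, more dividing cells and more RNA of these genes in each dividing cell cannot be told apart.

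Markers of stromal cells and of some other cell types differed between the same arrays. Their part in the mitosis gene values was not tested. Beside the marker counts below, 47.0% of all named genes were higher, 47.4% lower and 5.66% equal. Stromal markers were higher in 9 of 12 cases and lower in 3, from Cd44 (-0.30) to Lum (0.60). Of the 11 at or above 4.65, 8 were higher (72.7%, against 56.9% of named genes at that signal). By 0.32 or more, 4 of the 12 were higher (2.72% of all named genes) and none lower (3.06%). Of 10 macrophage markers 7 were higher, 2 lower and 1 equal in the knockout. Their summed linear signal was 284 in wild type and 460 in the knockout, led by Lyz2 (6.14 to 7.43, 1.29). Fcer1g (5.13 to 6.02, 0.90), Ctss (4.20 to 4.82, 0.63, dim), Cd68 (5.77 to 6.35, 0.58) and Tyrobp (4.57 to 5.09, 0.51) were also higher by more than 0.32. In all, 5 of the 10 were higher by that much (2.72% of all named genes) and none lower (3.06%). Cd14, with a mean signal above 4.65, was lower (4.90 to 4.72, -0.18). The defining genes Ptprc (2.86 on each array), Adgre1 (3.33 and 3.25) and Csf1r (4.61 and 4.62) were below 4.65. Of 7 pericyte and smooth muscle markers 5 were lower and 2 higher, with summed linear signals of 896 and 641, and Mcam (-0.69) and Myh11 (-0.51) were lowest and Des (0.41) highest. Endothelial markers summed to 153 and 167, with 5 of 7 higher. The 5 were all dim, among them Cdh5 (3.81 to 4.62), Emcn (3.24 to 4.04) and Pecam1 (3.56 and 3.64). The 2 with a mean signal at or above 4.65, Tek (5.61 to 5.47) and Cldn5 (5.18 to 5.17), were lower. Of 5 measured adipocyte markers 3 were lower and 2 higher, with summed linear signals of 114 and 89. The 3 lower were all dim: Retn (4.90 to 3.81), Adipoq (4.50 to 3.86) and Cidec (4.31 to 4.18). Plin1 (4.83 to 4.87), alone at or above 4.65 by its mean, and the dim Lep (3.68 to 3.73) were higher. Lymphocyte markers (4 genes, 2 higher) summed to 49 and 52 and epithelial markers (4 genes, 1 higher) to 84 and 82.

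**Figure D2:**
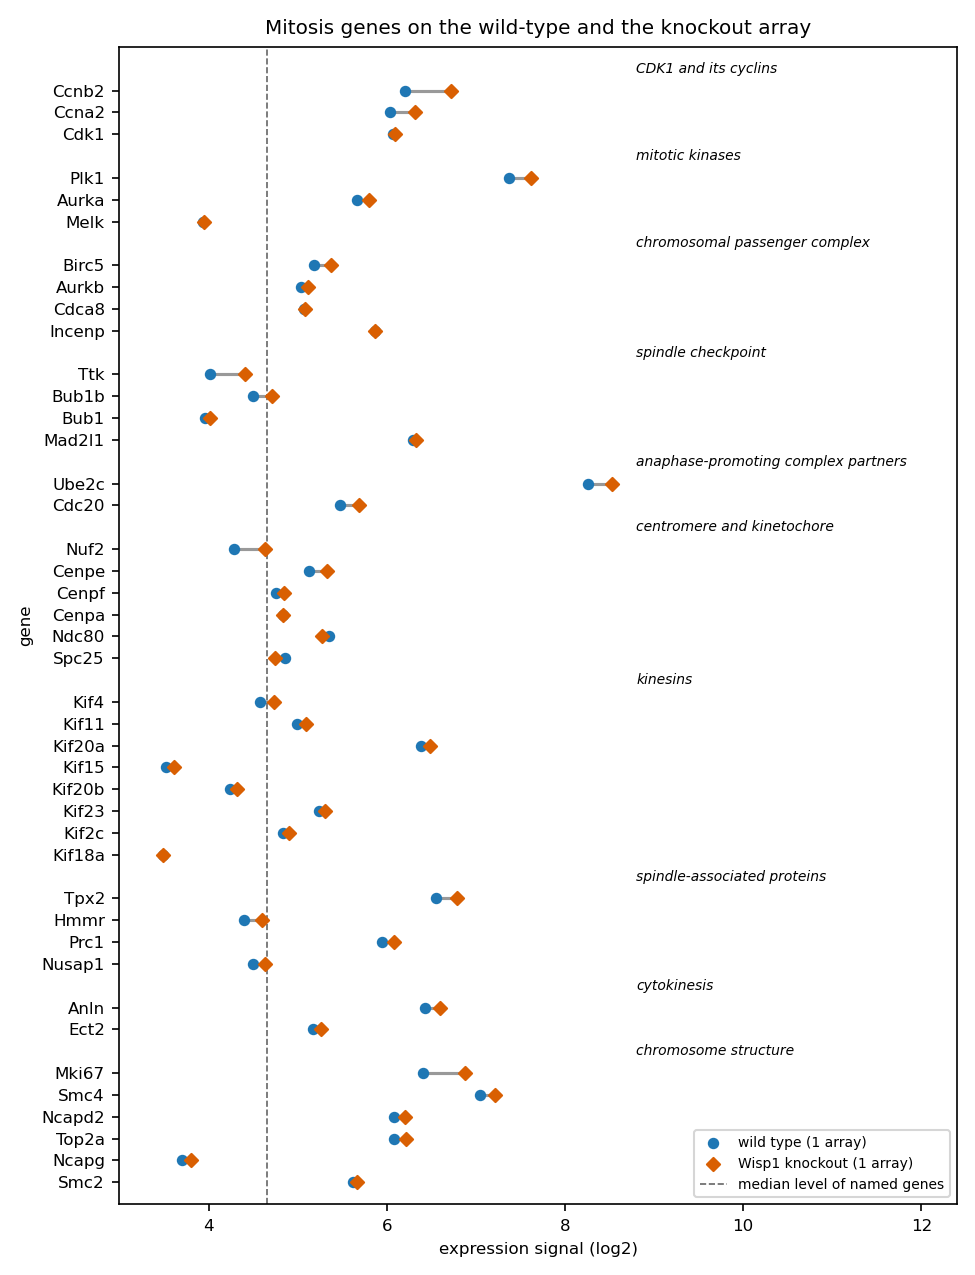
Log2 signal of the 42 measured mitosis genes on the wild-type array (circles) and the Wisp1 knockout array (diamonds), grouped by role, with a line joining the arrays and a dashed line at the median signal of named genes, 4.65. The knockout point lies to the right for 37 genes, most clearly for Ccnb2, Mki67, Ttk and Nuf2, and to the left for Ndc80 and Spc25.

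The kinase that drives mitosis and its cyclins did not differ alike. Ccnb2, which encodes cyclin B2, went from a log2 signal of 6.20 to 6.73 (0.52, or 1.44-fold). A pseudogene, Ccnb2-ps, is annotated for it, so whether its probes read Ccnb2 alone is uncertain. A higher difference was seen in 0.975% of the named genes whose signal was at or above the median. Ccna2, which encodes cyclin A2 of S phase and mitotic entry, went from 6.04 to 6.32 (0.28, or 1.21-fold). Cdk1 itself had 6.07 and 6.10 (0.03), close to the median of the brighter named genes, 0.03. The Cdk1 difference was -0.0015 after quantile normalization, the only change of sign under the alternatives tried among the 39 genes with a difference other than 0.

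Of the other mitotic kinases, Plk1, which acts from mitotic entry to cytokinesis, went from 7.37 to 7.61 (0.24, or 1.18-fold). Aurka, the centrosomal and spindle kinase, had 5.67 and 5.80 (0.13). Melk, a kinase of dividing cells, was dim and nearly equal on the arrays, at 3.93 and 3.95 (0.02). The partners of the anaphase-promoting complex were higher together. Ube2c, the ubiquitin-conjugating enzyme of that complex, went from 8.26 to 8.53 (0.26, or 1.20-fold), and Cdc20, its mitotic activator, from 5.47 to 5.69 (0.22, or 1.17-fold).

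The chromosomal passenger complex, which corrects faulty attachments at the centromere and moves to the midzone in anaphase, was split. Birc5, which encodes survivin, went from 5.18 to 5.37 (0.20). Its kinase Aurkb had 5.04 and 5.12 (0.08). Cdca8, which encodes borealin, had 5.07 and 5.08 (0.02), and the scaffold Incenp had 5.87 on each array, a difference of 0.

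All 4 spindle checkpoint genes were higher, by unequal amounts. Ttk, which encodes the kinase MPS1 that starts checkpoint signalling, went from 4.02 to 4.41 (0.39, or 1.31-fold), on a dim signal. Bub1b, which encodes BUBR1 of the mitotic checkpoint complex, had 4.50 and 4.71 (0.22). The kinetochore kinase gene Bub1 had 3.96 and 4.01 (0.05). Mad2l1, which encodes the checkpoint protein MAD2, had 6.30 and 6.33 (0.04). Of these genes, Mad2l1 alone had a mean signal at or above 4.65.

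Centromere and kinetochore genes held both lower genes of the group and 1 of the 4 highest, with 3 of 6 higher, 2 lower and 1 equal (median 0.05). The NDC80 complex, which binds spindle microtubules at the kinetochore, has 4 subunits, and they did not differ in the same direction. Nuf2 went from 4.29 to 4.64 (0.35, or 1.27-fold), while Ndc80 had 5.35 and 5.28 (-0.07) and Spc25 4.85 and 4.75 (-0.11). Spc24, the remaining subunit and outside the 44 genes, had 5.88 and 5.95 (0.07). Among the others, Cenpe, a kinesin that moves chromosomes to the spindle equator, went from 5.13 to 5.33 (0.20). Cenpf, a large kinetochore protein, had 4.76 and 4.85 (0.09). Cenpa, the histone variant that marks centromeres, had 4.84 on each array.

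The 8 kinesins, motor proteins that move on or reshape microtubules, stayed within a narrow range: 7 were higher, none was lower and Kif18a was equal. Their median was 0.08 and their highest value 0.16. Kif4, a chromosome-bound kinesin, went from 4.58 to 4.73 (0.16), and with a pseudogene, Kif4-ps, annotated, the same uncertainty holds for its probes. Kif11, the motor that pushes spindle poles apart, had 4.99 and 5.10 (0.10). The midzone and cleavage motors Kif20a (6.39 and 6.48) and Kif23 (5.24 and 5.31) differed by 0.09 and 0.07. Kif20b (4.24 and 4.32) and Kif15 (3.52 and 3.61) were dim, with differences of 0.08 and 0.09. Kif2c, which takes microtubules apart at the centromere, had 4.84 and 4.90 (0.07). Kif18a, which limits chromosome oscillation at the plate, was dim at 3.49 on each array. None of the 8 reached the 1.21-fold difference of Ccna2.

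Spindle-associated genes were higher in 4 of 4 cases (median 0.17). Tpx2, which activates Aurora A and nucleates microtubules, went from 6.55 to 6.79 (0.24, or 1.18-fold). Hmmr, a hyaluronan receptor that also binds spindle poles, had 4.40 and 4.60 (0.19), and Nusap1, a microtubule-bundling protein, 4.50 and 4.63 (0.13), each dim. Prc1, which bundles antiparallel microtubules in the midzone, had 5.94 and 6.09 (0.14). For cytokinesis, Anln, the scaffold anillin of the contractile ring, went from 6.43 to 6.59 (0.16), and Ect2, the exchange factor that activates RhoA at the cleavage furrow, from 5.17 to 5.26 (0.09). With Prc1, Kif4, Kif20a, Kif23 and Racgap1 (0.06), which is outside the 44 genes, the 7 central spindle and cleavage genes all lay between 0.06 and 0.16. The NDC80 subunits ran from -0.11 to 0.35, the highest being Nuf2, which was dim. Racgap1 and Spc24 were picked with their values in view, so both ranges only describe these genes.

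Chromosome structure genes were higher in 6 of 6 cases (median 0.13). Mki67, which encodes the proliferation marker Ki-67 that coats mitotic chromosomes, went from 6.40 to 6.87 (0.47, or 1.38-fold). Of named genes at or above the median signal, 1.36% had a higher difference. Top2a, the topoisomerase that untangles sister chromatids, had 6.08 and 6.21 (0.13). The condensin genes, whose products compact chromosomes, differed by little: Smc4 went from 7.05 to 7.22 (0.17), Ncapd2 from 6.08 to 6.21 (0.13), Ncapg from 3.70 to 3.80 (0.10) and Smc2 from 5.62 to 5.66 (0.04). The fifth condensin I subunit gene, Ncaph, outside the 44 genes and picked with its value in view, was 0.21 higher. Among 3 genes of condensin II alone, also outside the 44, 2 were higher and 1 equal (median 0.15).

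**Figure D3:**
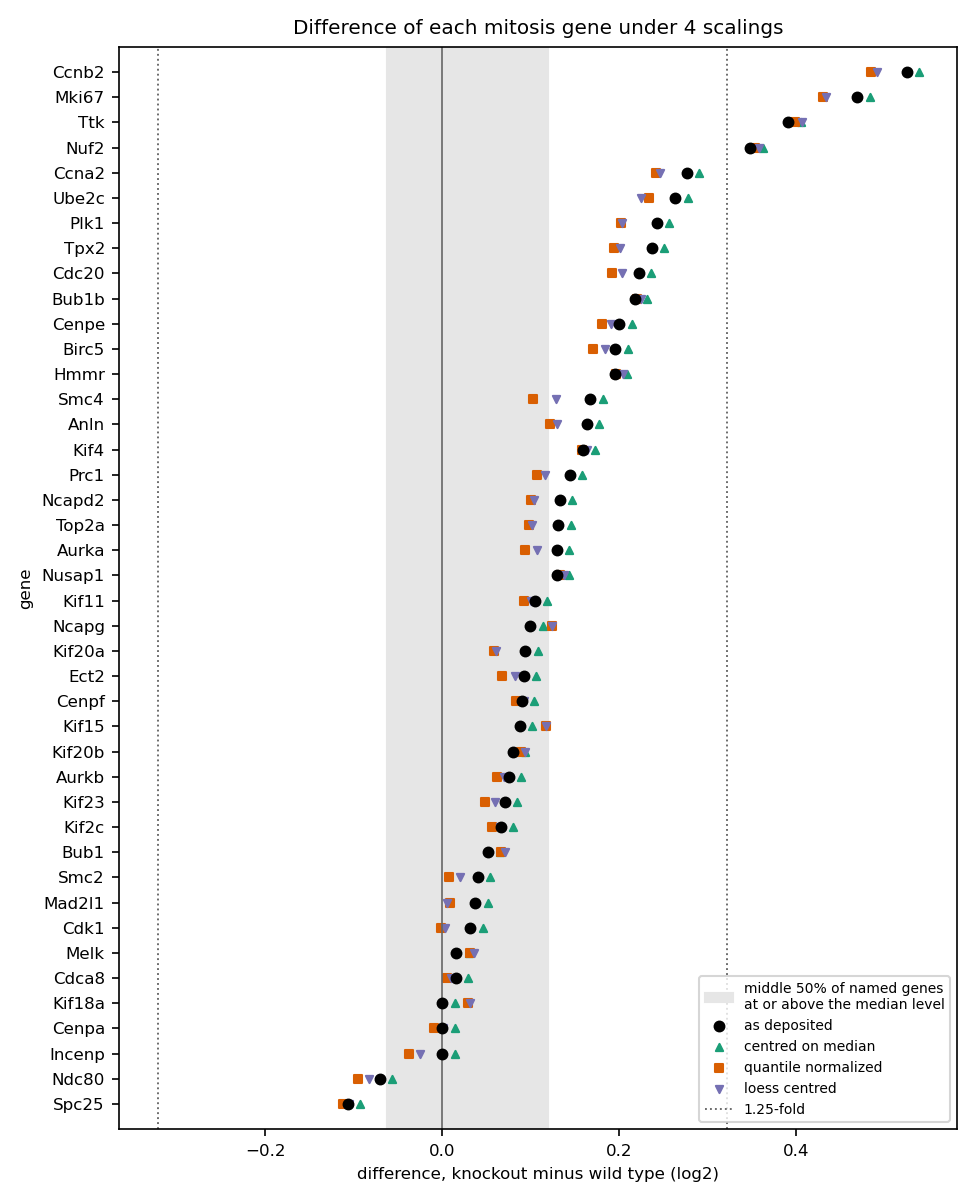
Difference of each of the 42 mitosis genes, knockout minus wild type (log2), as deposited and after 3 other scalings of the arrays; the grey band holds the middle 50% of named genes at or above the median signal (-0.06 to 0.12) and dotted lines mark a difference of 0.32 either way. Ccnb2, Mki67, Ttk and Nuf2 lie beyond 0.32 under each scaling shown, and Ndc80 and Spc25 stay below 0.

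The higher values did not extend evenly to other genes of cell division. A second list of mitotic genes, outside the 44, had 74 measured genes, of which 41 were higher (55.4%), 26 lower (35.1%) and 7 equal. Over all named genes 47.0% were higher and 47.4% lower. Of the 48 at or above the median signal 22 were higher (45.8%, against 56.9% of named genes at that signal), 21 lower and 5 equal. The median of these 48 was 0, against 0.03 for named genes at that signal. The median difference of the 74 was 0.02, against 0.12 for the 42 genes. At 1.1-fold 15 of the 74 were higher (20.3%, against 16.3% of all named genes) and 6 lower (against 16.6%). None was higher by 0.32, where 2.72% of all named genes were. Shcbp1, a midbody protein gene (4.18 to 4.50, dim), and Hmgb2, a chromatin protein gene (6.38 to 6.69), were highest, each at 0.31. Gtse1, a microtubule-binding regulator of p53, was lowest (7.38 in wild type, a difference of -0.38), followed by Zwint, a kinetochore protein gene (7.21 to 7.01, -0.21). CHR letters were found in 39 of 70 promoters of this list (55.7%). Whether the lists differ could not be tested with 1 array a group, and the 44 genes were chosen with earlier results of these data known.

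**Figure D4:**
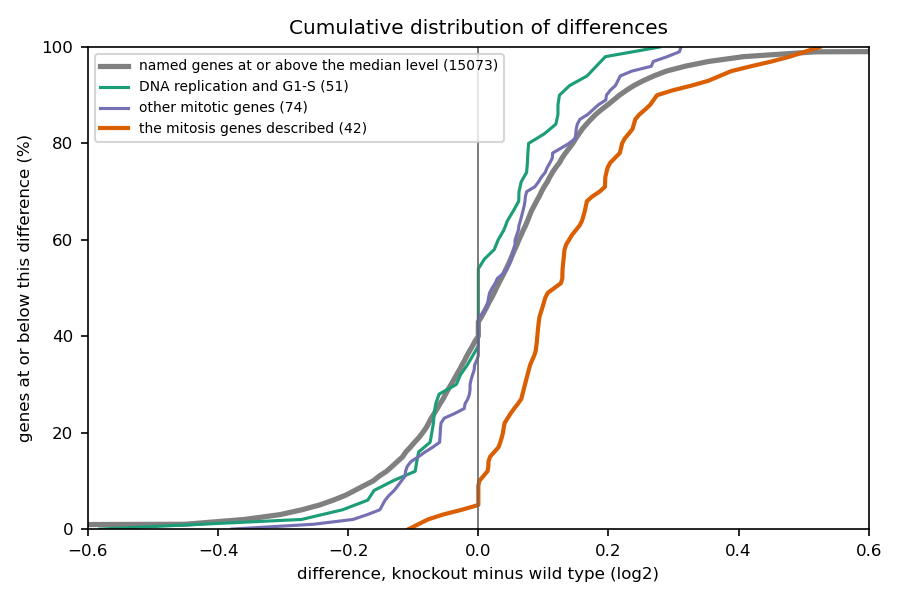
Cumulative percentage of genes at or below each difference (knockout minus wild type, log2) for the 42 mitosis genes, 74 other mitotic genes, 51 DNA replication and G1-S genes and the 15073 named genes whose signal was at or above the median. The curve of the 42 genes lies to the right, with a median of 0.12, while those of the other lists lie close to or cross the background curve near 0.

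Genes of DNA replication and the G1-S transition stood near 0 by their median. Of 51 such genes 23 were higher (45.1%, against 47.0% of all named genes), 19 lower and 9 equal, with a median of 0. At or above the median signal 19 of 37 were higher (51.4%, against 56.9% of named genes at that signal). The highest were Cdc7, a kinase that fires replication origins (4.93 to 5.21, 0.28), and Cdk2 (6.23 to 6.43, 0.20). The lowest were Cdk6, a kinase of G1 progression (6.52 to 5.94, -0.58), and Ccnd2, which encodes its partner cyclin D2 (11.18 to 10.91, -0.27). A list of 16 anaphase-promoting complex genes held its subunits and the regulator genes Fbxo5 and Fzr1. All 16 had a mean signal at or above the median. Their median difference was 0.03, with 11 higher (68.8%, against 56.9% of named genes at that signal) and 3 lower. The differences ran from Fbxo5 and Cdc23 (-0.02 each) to Cdc27 (0.14) and Cdc16 (0.18). The list median was -0.01 after quantile normalization and after loess centring. Genes of cohesin, which holds sister chromatids together, and of its regulators leaned higher. In this list 13 of 15 were higher (86.7%, against 47.0% of all named genes). Of the 12 at or above the median signal 11 were higher (91.7%, against 56.9% of named genes at that signal). The list median was 0.08, and 0.05 after quantile normalization and 0.04 after loess centring. Nipbl (0.17) and Stag2 (0.16) were highest and Esco2 (-0.14, dim) and Espl1 (-0.08) lowest.

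The regulators of mitosis genes were close to 0 by their median. Of 22 MuvB, RB, E2F and NF-Y genes 11 were higher (50%, against 47.0% of all named genes) and 11 lower. Of the 20 at or above the median signal 10 were higher (50%, against 56.9% of named genes at that signal) and 10 lower. The median of the 22 was 0.0025 as deposited, -0.04 after quantile normalization and -0.02 after loess centring. E2f3, an activating E2F (6.89 to 7.11), and Lin37, a MuvB subunit (7.28 to 7.50), were highest, each at 0.21. E2f6, a repressive E2F (6.61 to 6.18, -0.43), and Mybl1 (5.25 to 4.99, -0.25) were lowest. Mybl2, which encodes the B-MYB partner of MuvB, had 4.95 and 4.97 (0.02). The cluster shared by Foxm1 and 4933413G19Rik had 5.20 and 5.28 (0.08). Among 7 CDK inhibitor genes, all at or above the median signal, 5 were higher (71.4%, against 56.9% of named genes at that signal) and 2 lower. Their median was 0.03, and -0.01 after quantile normalization and after loess centring. Cdkn1b was highest (6.45 to 6.88, 0.44), past 0.32, then Cdkn2c (4.96 to 5.13, 0.17), and Cdkn2a (-0.15) and Cdkn2b (-0.13) were lowest. Cdkn1a, the main p53 target that arrests the cycle, had 10.71 and 10.75 (0.03).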

How the data were processed

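Total RNA of 1 wild-type and 1 Wisp1 knockout sample was biotin-labelled (Affymetrix GeneChip WT PLUS), per the labels' protocols. The authors deposited log2 values per transcript cluster, made with RMA and Partek, per the submitters' processing notes; versions, array build and arrays normalized together are not given in the sources used here. That the scale is log2 follows from the range, 1.74 to 13.65. RMA makes arrays alike in distribution and compresses differences of dim genes, and the number of arrays limits the precision. Of the clusters, 30604 carried 1 distinct platform symbol, 2146 several (left out) and 33206 none; symbols can be old. For the 352 genes with several clusters the one of highest mean was used.

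Differences were knockout minus wild type, with no further normalization, in Python 3.11.15 (numpy 2.4.6, pandas 2.3.3, statsmodels 0.14.6, matplotlib 3.10.9), tested on simulated data. Every measured gene of the 44 is named; of each list of other cell division genes, the brighter ones past a difference of 0.32 and at least the 2 highest and 2 lowest. Cell type markers could be named freely, and only some are. Spc24, Ncaph, Racgap1, Mybl2 and Cdkn1a lie outside that rule and were picked with their values in view. The members and lists were chosen with earlier results of these data known. Alternatives covered the filter, scaling (loess span 0.3), clusters, symbols, fold size and summary.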

Additional observations from a re-analysis of the deposited data

How the results depend on the processing

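No paired analysis was possible because each group has 1 sample, and no replicate could be left out. The median difference of the 42 genes, 0.12, lay between 0.0986 (quantile normalization) and 0.138 (mean of members) over the alternatives listed. Without Ccnb2 and Mki67, a setting chosen after seeing the data, it was 0.102. The number of higher genes ran from 27 of 31 (members at or above the median signal) to 40 of 42 (centring on the median). The count of genes higher by 0.32 or more, 2 of 31, was 4 of 42 with no filter; with other fold sizes it was 13 at 1.1-fold, 0 at 1.5-fold and 0 at 2-fold. The first of these changes comes from the added dim genes and the others from the fold itself. No gene was lower by 1.1-fold or more. Over 252 values of single genes under 6 alternatives the largest shift was 0.0654, and none of the 4 genes past 0.32 changed sign. With no replicates, a difference of 0.1 was taken as the limit of a shift for single genes and 1.5 times for counts and the median. Differences of this size have no error estimate here, and dim genes such as Ttk and Nuf2 are the least certain.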
